A study of Mus musculus with 2 samples.

Results

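The genes of oxidative phosphorylation were described in dendritic epidermal T cells (DETCs), the γδ T cells that line mouse epidermis. Members were taken by symbol: the mitochondrial genes mt-Nd, mt-Co, mt-Cyt and mt-Atp, the Nduf, Cox4 to Cox8, Uqcr and Atp5 families, Cyc1, and Sdha to Sdhd. Of 98 such symbols among 31053 genes, 88 had at least 10 UMIs per 1000000 UMIs (CPM) over all DETCs and were kept, 13 of them encoded in mitochondrial DNA (mtDNA) and 75 in the nucleus. At the same limit, 7560 genes of any kind were measured.

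Oxidative phosphorylation takes electrons from NADH through complex I, or from succinate through complex II, and passes them by way of complex III to complex IV, which reduces oxygen. Complexes I, III and IV pump protons, and complex V, the ATP synthase, uses their return to make ATP. Each complex other than complex II joins core subunits encoded in mtDNA, which are transcribed inside the organelle, with subunits encoded in nuclear genes, which are imported as proteins. Resting and dividing T cells are known to differ in how much they draw on this pathway.

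The cells were live CD45+ EpCAM- MHC-II- cells sorted from ear epidermis of wild-type female FVB/NJ mice, 8 weeks old. Ears had been injected intradermally 7 d earlier with isotype control antibody or with anti-Skint1 antibody, which is directed against Skint1, an epithelial protein needed for DETC selection. There was 1 droplet library per treatment (isotype library and Skint1 antibody library), so treatment and library cannot be told apart, and no test between treatments was made. By the definition of n in the study's methods and legends, each library came from 1 mouse. Where a pair of values is given, the isotype library comes first and the Skint1 antibody library second.

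Kept barcodes had between 500 and 2500 genes and no more than 12% mitochondrial UMIs. There were 4242 and 5961 of them, and 5 barcodes occurred in both libraries. DETCs were cells with at least 3 Trdc UMIs, at least 3 UMIs of Cd3d, Cd3e and Cd3g together, and no Trac. There were 3563 and 4972 such cells, with 14747004 and 18838158 UMIs, and a median of 4028 and 3578 UMIs per cell. They held the Vδ segment Trdv4 at 977 and 789 CPM. Keratinocyte markers summed to 19.0 and 30.7 CPM over 5 genes. Of the other 6 genes in the αβ T cell marker list (Trac is at 0 by the gate), Cd4, Cd8a, Cd8b1 and Foxp3 were at 1.33 CPM or less. The β chain constant genes were not, with Trbc1 at 1489 and 1249 CPM and Trbc2 at 1098 and 978 CPM, against 1115 and 935 CPM and 1215 and 1119 CPM in the αβ T cells described below. The 13 mtDNA-encoded members are all the mitochondrial genes in the index. The 12% limit therefore caps their summed level in each cell, and their sum is given below with other limits as well.

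Values in parentheses after a level, ratio or share are 95% intervals. Those of levels are exact Poisson intervals, those of log2 ratios of CPM come from the exact conditional binomial, and those of shares are Clopper-Pearson intervals. They cover counting error only. UMIs were counted at the 3' end of poly(A) RNA, so a level is not divided by gene length, and how well each RNA is primed also enters a comparison of levels between genes.

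The 13 mtDNA-encoded members made up most of the pathway's UMIs in DETCs. They took 5.54% and 5.69% of all UMIs. The 75 nuclear members took 1.97% and 2.0%. Of all member UMIs, 26.3% (26.2 to 26.4) and 26.1% (26.0 to 26.1) were nuclear.

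Levels of the mtDNA-encoded members spanned a wide range. Highest was mt-Atp6, the proton channel subunit of complex V, at 10976 and 11532 CPM. The core subunits of complex IV followed, with mt-Co1 at 10522 and 10549 CPM, mt-Co3 at 9566 and 9719 CPM and mt-Co2 at 8889 and 9080 CPM. mt-Cytb, the only mtDNA-encoded subunit of complex III, was at 4200 and 4576 CPM. The 7 complex I subunits were lower than these. They ran from mt-Nd4 at 3912 and 4044 CPM through mt-Nd1 at 2806 and 2777, mt-Nd2 at 2256 and 2305, mt-Nd5 at 947 and 935, mt-Nd3 at 590 and 623 and mt-Nd4l at 436 and 449 CPM, to mt-Nd6. At 68.5 and 71.5 CPM, mt-Nd6 was the lowest of the 13, and it is the only one on the minus strand of the mitochondrial chromosome (M:13552-14070, GRCm38). mt-Atp8, which overlaps mt-Atp6 by 43 bases, was at 194 and 198 CPM. mt-Nd4l overlaps mt-Nd4 by 7 bases, and both are read from a shared transcript, so UMIs within such a pair may be split between its genes by the counting.

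Nuclear members were lower than most mtDNA-encoded members, and their level depended on the complex. The median nuclear member of complex IV was at 474 and 490.2 CPM, and that of complex V at 323 and 309 CPM. Medians were 172 and 167 CPM in complex III, 143 and 140 in complex I, and 64.7 and 65.1 in complex II, the only complex with no mtDNA-encoded subunit. In sums, the 35 nuclear genes of complex I gave 5861 and 5955 CPM, close to the 5639 and 5755 CPM of the 11 in complex IV and the 5754 and 5826 CPM of the 15 in complex V. The 9 of complex III gave 1862 and 1893 CPM, and the 4 of complex II gave 248 and 246 CPM.

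**Figure D1:**
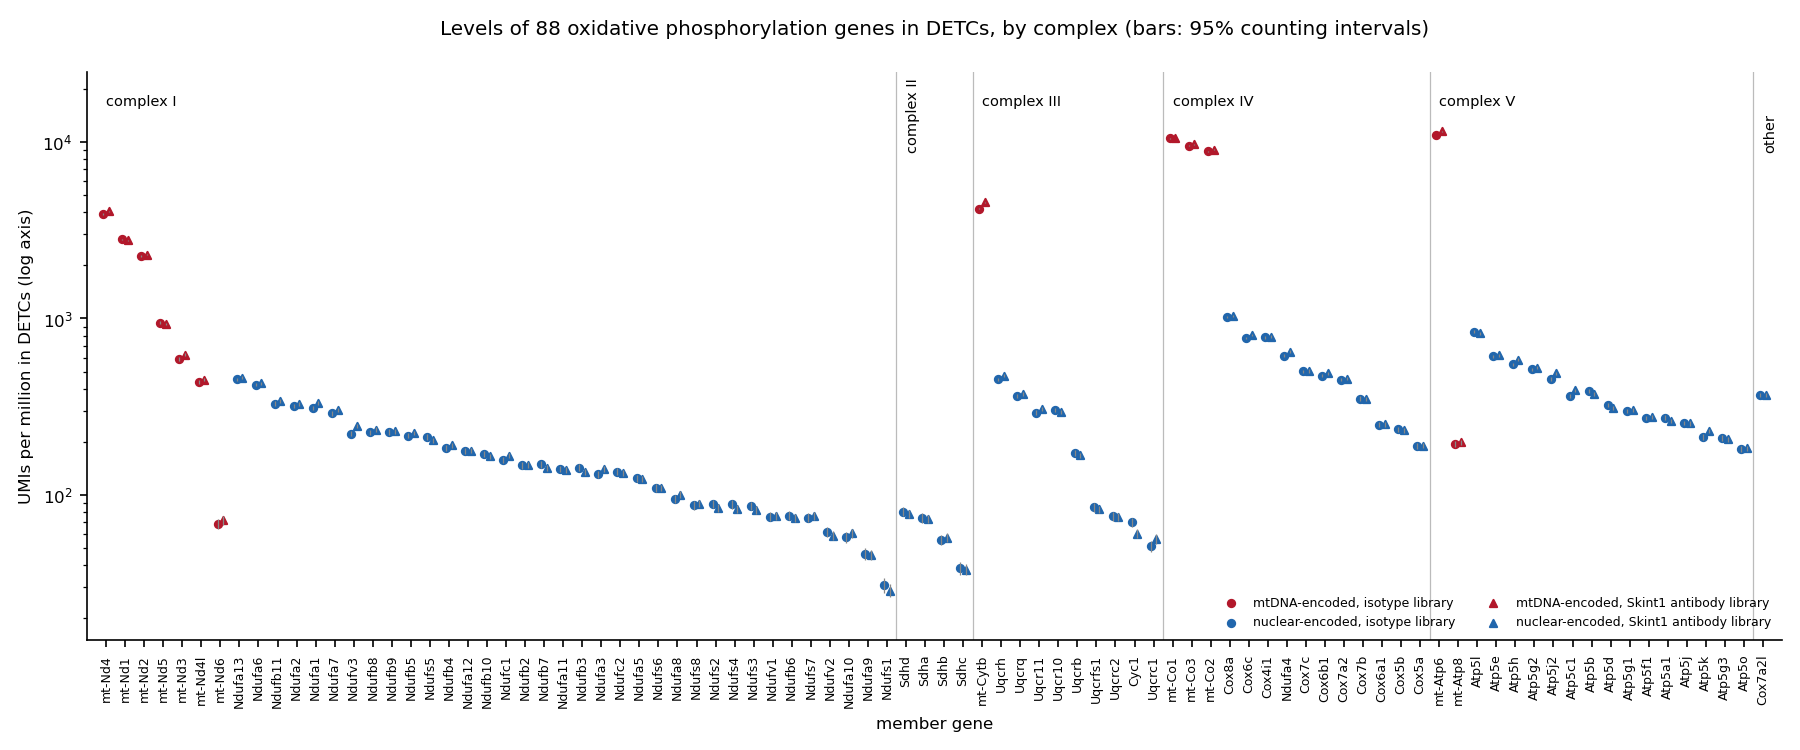
Level of each of the 88 members in DETCs, in CPM on a log axis, ordered by complex and by genome of origin, with circles for the isotype library, triangles for the Skint1 antibody library and bars for 95% counting intervals. mtDNA-encoded members reach 11532 CPM, nuclear members run from 28.6 to 1037 CPM, and the 2 libraries lie on top of each other for nearly every gene.

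Within each complex, nuclear members differed widely. In complex IV, the small subunit gene Cox8a was highest, at 1017 and 1037 CPM, Cox6c was at 775 and 808 CPM, and Cox5a was lowest, at 189 and 190 CPM. In complex V, the membrane subunit gene Atp5l was at 843 and 823 CPM and the epsilon subunit gene Atp5e at 611 and 617 CPM. The lowest was Atp5o, whose product OSCP joins the stalk to the catalytic head, at 182 and 184 CPM. In complex III, Uqcrh was at 451 and 474 CPM and Uqcrq at 362 and 374 CPM, against 51.1 and 56.1 CPM for the core protein gene Uqcrc1. In complex I, Ndufa13 was at 451 and 461 CPM and Ndufa6 at 422 and 428 CPM. The lowest there and of all members was Ndufs1, an iron-sulphur subunit that carries electrons, at 30.6 and 28.6 CPM. In complex II, the membrane anchor Sdhd was at 80.2 and 77.7 CPM, the flavoprotein Sdha at 73.9 and 73.1 CPM and the anchor Sdhc at 38.3 and 37.6 CPM. The Sdhd and Sdha intervals overlapped in both libraries.

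DETCs used the widely expressed isoform of each subunit that has tissue-restricted partners. Cox4i1 was at 782 and 789 CPM and Cox4i2 at 0.41 and 0.48. Cox6a1 was at 250.2 and 251 CPM and the muscle isoform Cox6a2 at 0.068 and 0.16. Cox6b1 was at 474 and 490.2 CPM and the testis isoform Cox6b2 at 0.41 and 0.90. Cox7a2 was at 450.1 and 456 CPM and the muscle isoform Cox7a1 at 2.85 and 2.71. Cox8b, the muscle partner of Cox8a, had 0 UMIs in DETCs of either library, where 3 UMIs would be 0.20 and 0.16 CPM. Ndufa4 was at 614 and 647 CPM, whereas Ndufa4l2, its hypoxia-induced relative, had 0 UMIs and 1 UMI. All 3 genes for the c subunit that forms the rotor ring of ATP synthase were read, with Atp5g2 at 514 and 526 CPM, Atp5g1 at 299 and 303 CPM and Atp5g3 at 210.5 and 207 CPM. The other symbols under the limit were Cox7b2, Cox8c and a second Atp5o identifier, ENSMUSG00000116933, all without a UMI in DETCs, and Atp5s at 7.46 and 7.11 CPM.

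Between treatments, the pathway was level. Summed over genes, the log2 ratio of Skint1 antibody to isotype was 0.04 (0.03 to 0.04) for the mtDNA-encoded members and 0.02 (0.02 to 0.03) for the nuclear members. The median member was at 0.014 and the median of all 7560 genes at -0.026. No member was past 1.2-fold in either direction, 0 of 88, where 2.21% of all genes were past it upward and 4.76% downward. This held under every alternative tried.

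Intervals of 21 members lay above 0, against 7.92% of all genes, and intervals of 4 members lay below 0, against 15.8% of all genes. Since an interval narrows with the UMI count and members are abundant, these shares are not compared further. The 4 below 0 were Cyc1, the cytochrome of complex III, and the ATP synthase genes Atp5d, Atp5b and Atp5a1. Cyc1 was at 69.8 CPM (65.6 to 74.2) after isotype and 60.2 CPM (56.8 to 63.9) after Skint1 antibody, a log2 ratio of -0.21 (-0.33 to -0.09), the lowest of any member. Ndufs1, Ndufs4, Ndufb3 and Ndufs3 followed at -0.10, -0.08, -0.08 and -0.07, with intervals that held 0. At the other end stood the complex I subunit gene Ndufv3, at 222 and 247 CPM with a ratio of 0.15 (0.08 to 0.21), and Uqcrc1 at 0.13 (-0.00 to 0.27). mt-Cytb followed at 0.12 (0.11 to 0.14), then Atp5k at 0.11 and Atp5c1 at 0.10. Among mtDNA-encoded members, 7 had intervals above 0 and none below.

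**Figure D2:**
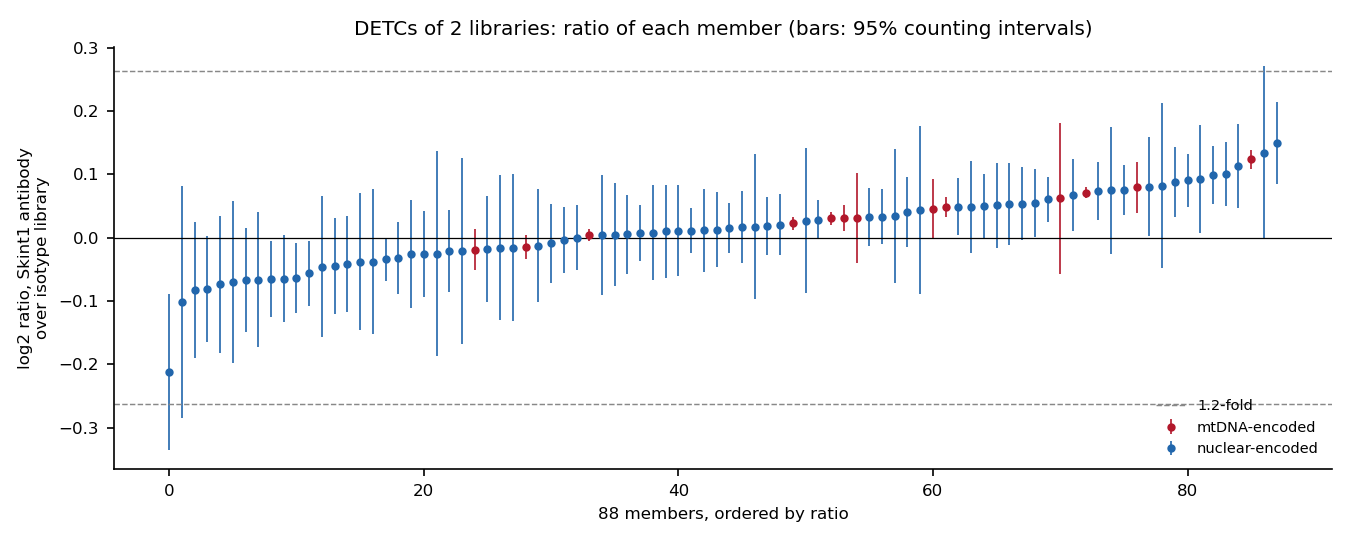
Log2 ratio of CPM in DETCs, Skint1 antibody library over isotype library, for the 88 members in order of the ratio, with 95% counting intervals and dashed lines at 1.2-fold. Ratios run from -0.21 (Cyc1) to 0.15 (Ndufv3), and every point lies between the dashed lines.

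DETCs were then compared with αβ T cells from the same sort, taken as cells with at least 1 Trac UMI and no Trdv4 UMI (197 and 213 cells, 800759 and 836438 UMIs). Their markers went partly against the label. Trac was at 584 and 499 CPM, Cd4 at 98.7 and 87.3 and Foxp3 at 32.5 and 25.1 CPM, but 18 and 44 of these cells had at least 3 Trdc UMIs. Trdc summed to 299.7 and 546 CPM, and Il17a, a product of dermal γδ T cells, to 64.9 and 126 CPM against 10.9 and 6.26 CPM in DETCs. They are called αβ T cells below by that gate only. They also differed from DETCs in the summed level of 5 heat shock genes (1904 and 2096 CPM against 5886 and 4294 CPM), in that of 6 immediate early genes (3182 and 4163 CPM against 6844 and 6712 CPM) and in their share of cycling cells (8.63% and 5.16% against 2.30% and 1.73%). The part of the heat shock and immediate early differences in the results below was not tested.

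Sums per class and library were compared with edgeR, with library as a block. Of the 88 members, 28 were called lower in DETCs (adjusted p under 0.05) and 0 higher, where 16.7% of 9152 genes were called lower and 16.9% higher. DESeq2 called 9 lower and 0 higher (8.76% and 7.17% of all genes), and 35 members had an edgeR p under 0.05 before adjustment, of which Ndufa13 alone was higher in DETCs. The split depended on the scaling. With TMM factors, the median log2 ratio was -0.13 over members and 0.014 over all genes. On total UMIs these medians were 0.012 and 0.15, and 10 members (11.4%) were called in each direction, where 22.9% of all genes were called higher and 13% lower. Called lower under both scalings were 10 members, all of them nuclear: Cox5a, Cox4i1 and Cox7c of complex IV, Uqcrh and Uqcrfs1 of complex III, Ndufb7 of complex I, Sdhb of complex II, and Atp5e, Atp5h and Atp5k of complex V. None was called higher under both.

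Cox5a, a nuclear subunit that joins complex IV early in its assembly, stood furthest out. After isotype it was at 189 CPM (182 to 196) in DETCs against 345 (305 to 388) in αβ T cells, and after Skint1 antibody at 190.1 CPM (184 to 196) against 384 (343 to 428). The edgeR log2 ratio was -1.08 (adjusted p = 4.3e-16). Both DETC values lay below both αβ values. Ndufb7, an accessory subunit of complex I, was at 149 and 142 CPM against 251 and 244 CPM, a log2 ratio of -0.91 (adjusted p = 2e-11). Sdhb, the iron-sulphur subunit of succinate dehydrogenase, was at 55.5 and 57.2 CPM against 83.7 and 102 CPM, with -0.86 (adjusted p = 1.9e-06). Uqcrh followed at 451 and 474 against 642 and 616 CPM (log2 ratio -0.58, adjusted p = 4.1e-09), and Cox7c at 501 and 504 against 661 and 678 CPM (log2 ratio -0.55, adjusted p = 1.1e-08). For each of these 5 genes, the interval of the ratio lay below 0 in either library taken alone. Without αβ cells that held a Trdc UMI, the ratios were -1.27, -1.01, -1.02, -0.60 and -0.63, and without cycling cells in both classes -0.97, -0.88, -0.77, -0.63 and -0.51. The setting without cycling cells was added after the data were seen.

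Not all of a complex was lower. Cox4i1, the partner of Cox5a in assembly, was at 782 and 789 CPM against 1069 and 989 CPM (log2 ratio -0.53, adjusted p = 1.8e-09), while Cox8a was at 1017 and 1037 against 902 and 888 CPM (log2 ratio 0.06, adjusted p = 0.56), and it was called higher on total UMIs (0.20, adjusted p = 0.01). By complex, 6 of 11 nuclear members of complex IV and 6 of 15 of complex V were called lower with TMM factors, as were 7 of 35 in complex I, 2 of 9 in complex III and 1 of 4 in complex II. On total UMIs these counts were 3, 3, 1, 2 and 1. Among members with at least 100 UMIs in each class, those with the highest ratios, Ndufb4 (0.19), Uqcr11 (0.19), Ndufa13 (0.17), Ndufc1 (0.16) and Ndufb2 (0.16), had adjusted p between 0.11 and 0.35. On total UMIs each of these genes was called higher by edgeR, with ratios from 0.30 to 0.33 and adjusted p between 0.00095 and 0.046. Sdha (0.26, adjusted p = 0.227) and Sdhc (0.20, adjusted p = 0.541) had higher ratios on fewer UMIs, and Sdha was called higher on total UMIs (0.40, adjusted p = 0.046).

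The mtDNA-encoded members kept no direction between DETCs and αβ T cells. With TMM factors 5 of 13 were called lower (mt-Nd1, mt-Nd2, mt-Nd5, mt-Co2 and mt-Atp6), and on total UMIs 2 were called higher and none lower. Their summed log2 ratio of CPM was 0.10 (0.08 to 0.11) after isotype and 0.006 (-0.007 to 0.02) after Skint1 antibody.

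**Figure D3:**
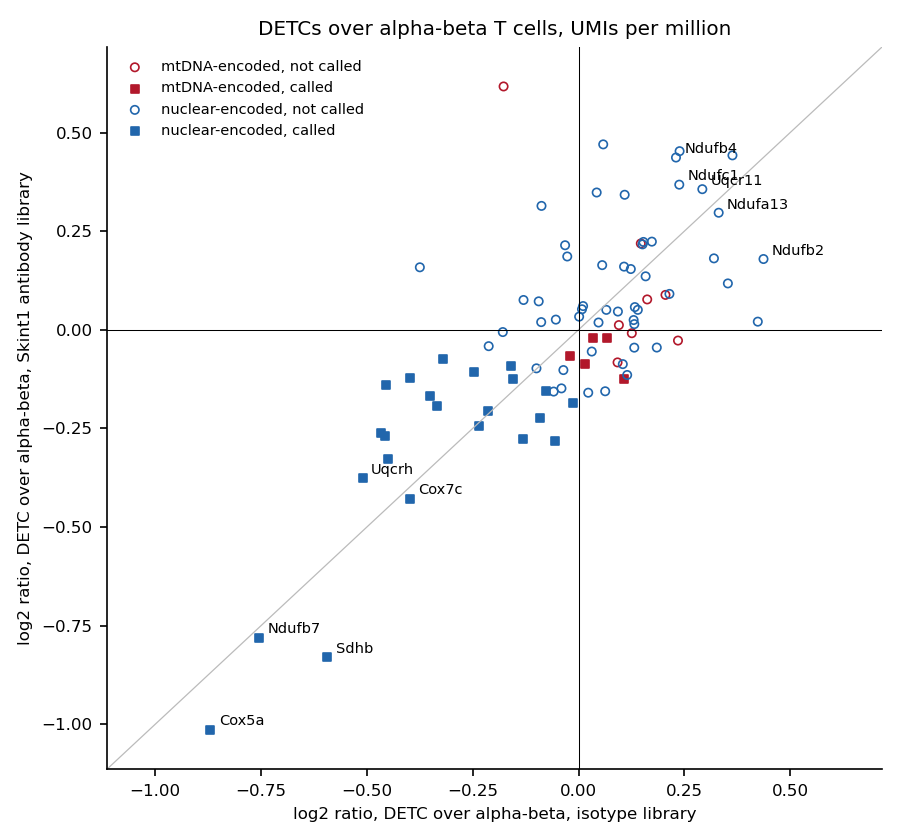
Log2 ratio of CPM, DETCs over αβ T cells, in the isotype library (horizontal) and the Skint1 antibody library (vertical), 1 point per member. Filled squares were called by edgeR with TMM factors, a scale on which the median of all genes is 0.014 and not 0.15, so that called points can stand near or above 0 on these axes. Cox5a, Ndufb7 and Sdhb stand apart from the other members at the lower left in both libraries.

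Promoters of the 3 genes that differed most, and of Atp5o, which is among the members most raised in cycling cells below, are shown with the letters of known motifs in capitals. Each runs from 250 bases before to 50 bases after the RefSeq start, on the strand of the gene (GRCm38.p6). The Cox5a window (chr9:57520982-57521281, plus strand) held none of the motifs searched. The Ndufb7 window (chr8:83566508-83566807, plus strand) held the ETS motif once, the Sdhb window (chr4:140961021-140961320, plus strand) held the ETS motif once and the SP motif in 2 places, and the Atp5o window (chr16:91931581-91931880, minus strand) held the NRF1 motif.

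Cox5a: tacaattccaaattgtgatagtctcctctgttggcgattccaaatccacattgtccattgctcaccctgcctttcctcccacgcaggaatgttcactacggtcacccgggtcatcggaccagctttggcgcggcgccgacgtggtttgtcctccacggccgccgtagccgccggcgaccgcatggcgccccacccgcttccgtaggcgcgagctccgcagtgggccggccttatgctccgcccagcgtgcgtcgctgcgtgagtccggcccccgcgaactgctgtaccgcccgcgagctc
Ndufb7: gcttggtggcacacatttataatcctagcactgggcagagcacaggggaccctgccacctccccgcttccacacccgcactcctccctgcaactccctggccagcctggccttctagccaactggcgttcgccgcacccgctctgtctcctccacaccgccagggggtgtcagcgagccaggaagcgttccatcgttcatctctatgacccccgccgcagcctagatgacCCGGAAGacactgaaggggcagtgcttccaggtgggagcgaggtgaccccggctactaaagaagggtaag
Sdhb: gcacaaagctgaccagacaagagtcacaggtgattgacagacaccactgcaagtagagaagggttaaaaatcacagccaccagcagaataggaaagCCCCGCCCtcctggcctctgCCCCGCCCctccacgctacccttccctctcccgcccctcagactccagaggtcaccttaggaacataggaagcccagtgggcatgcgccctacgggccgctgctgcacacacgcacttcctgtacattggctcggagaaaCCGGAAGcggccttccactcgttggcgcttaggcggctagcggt
Atp5o: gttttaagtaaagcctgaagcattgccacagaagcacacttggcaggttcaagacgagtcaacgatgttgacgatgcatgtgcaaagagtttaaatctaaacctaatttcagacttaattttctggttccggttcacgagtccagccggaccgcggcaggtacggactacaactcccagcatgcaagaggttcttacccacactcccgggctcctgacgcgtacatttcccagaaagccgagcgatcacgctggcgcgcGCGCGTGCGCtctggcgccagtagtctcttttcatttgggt

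The same windows were searched on both strands for the consensus of NRF1 and for the letters CCGGAAG of GABPA and other ETS factors, AANATGGCG of YY1, TNAAGGTCA of the ERR receptors and GGGCGGGG of SP factors, which are textbook motifs of respiratory chain promoters. N stands for any base, and no string holds another. RefSeq windows were matched by symbol for 62 of 75 nuclear members. NRF1 letters were in 17 of them (27.4%, against 5.19% of all 27025 gene promoters) and ETS letters in 16 (25.8% against 9.93%). YY1 letters were in 10 (16.1% against 2.76%), ERR letters in 3 (4.84% against 1.43%) and SP letters in 10 (16.1% against 19.6%). These are descriptions of sequence, and 41 of the 62 windows held at least 1 of the motifs. The 27025 promoters include those of genes under 10 CPM in DETCs, so the shares are not matched for expression and are not read as particular to this pathway. Atp5k, Atp5h, Cox6a1 and Sdhd held those of NRF1 and ETS factors together, and Atp5g3, Ndufb4 and Sdhd those of NRF1 and ERR.

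Among DETCs, cycling cells carried more UMIs of nuclear members. Cycling DETCs were those with at least 3 UMIs over 12 cell cycle genes (82 and 86 cells, 439478 and 484802 UMIs), and their depth differed from that of other DETCs, at a median of 5535 and 5796 UMIs against 4002 and 3562. They were also lower in immediate early genes (4885 and 4672 CPM against 6904 and 6766 CPM) and in heat shock genes (5240.3 and 3441 CPM against 5906 and 4317 CPM), and the part of these differences was not tested. Nuclear members took 2.47% and 2.47% of UMIs there, against 1.96% and 1.99% in other DETCs, log2 ratios of 0.33 (0.31 to 0.36) and 0.31 (0.28 to 0.34). edgeR called 39 members higher in cycling DETCs and 3 lower, where 10.7% of 9170 genes were called higher and 6.06% lower. All 39 were nuclear, and on total UMIs 39 were again called higher, the same genes, and 4 lower (10.7% and 6.16% of all genes).

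The higher calls ran through every complex other than complex II. They took in 9 of 11 nuclear members of complex IV, 11 of 15 of complex V, 16 of 35 of complex I and 3 of 9 of complex III, but 0 of 4 of complex II, where edgeR's p before adjustment was under 0.05 for 1 gene, Sdhb, and DESeq2 called none. These 4 genes are low, and their summed log2 ratio of CPM was 0.44 (0.19 to 0.68) after isotype and 0.04 (-0.24 to 0.30) after Skint1 antibody. Cox5a was at 316 and 355 CPM in cycling against 185 and 186 CPM in other DETCs (log2 ratio 0.86, adjusted p = 1.5e-14). Atp5j, coupling factor 6 of the ATP synthase stalk, was at 389 and 481 against 251 and 248 CPM (0.80, adjusted p = 1.5e-15). Both libraries showed these rises, and the cycling values did not overlap the others. Atp5o was at 291 and 314 against 179 and 180.3 CPM (0.75, adjusted p = 1.5e-10), Cox5b, a zinc-binding subunit of complex IV, at 389 and 369 against 231 and 229 CPM (0.72, adjusted p = 1.6e-11), and Ndufc2 at 205 and 198 against 133 and 131 CPM (0.61, adjusted p = 2.9e-05). Not every member was called. Cox4i1 was at 837 and 833 against 781 and 787 CPM (0.09, adjusted p = 0.48) and Sdha at 75.1 and 72.2 against 73.9 and 73.1 CPM (0.002, adjusted p = 0.997).

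Cox7a2l, whose product helps complexes III and IV join in supercomplexes and is not a subunit of either alone, was lower. It was at 282 and 272 CPM in cycling against 370.4 and 370.2 CPM in other DETCs, a log2 ratio of -0.42 (adjusted p = 0.00059), although it was not called by DESeq2 or with mitochondrial UMIs limited to 5%. mt-Nd5 (log2 ratio -0.21, adjusted p = 0.026) and mt-Nd2 (-0.16, adjusted p = 0.049) were the other lower calls. Neither was called by DESeq2 (adjusted p = 0.44 and 0.35), with thinned cycling calls (0.15 and 0.082) or without the library block (0.21 and 0.27). Across the alternatives their adjusted p reached from 4.2e-09 to 0.44 and from 2.2e-09 to 0.35. mt-Nd3 was at -0.17 (adjusted p = 0.16) and Ndufa6 at -0.17 (adjusted p = 0.245). The summed mtDNA-encoded members had log2 ratios of CPM of -0.05 (-0.07 to -0.03) and -0.02 (-0.04 to -0.002), and none of the 13 was called higher by edgeR or DESeq2, or had a higher ratio with an edgeR p under 0.05 before adjustment.

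The upper limit of 2500 genes removed many cycling cells. Without it there were 230 and 213 cycling DETCs, with 1969113 and 1810891 UMIs, and 60 members were called higher and 13 lower. Keratinocyte markers summed to 547 and 620.1 CPM in these cycling cells and to 115 and 175 CPM in the other DETCs without the limit, against 13.7 and 10.3 CPM in cycling DETCs with it, and their part was not tested. With mitochondrial UMIs limited to 5%, 35 and 34 cycling cells were left, and 12 were called higher and 0 lower. DESeq2 called 17 higher, all among the 39, and 0 lower (4.99% and 1.22% of all genes). With cells thinned to 2000 UMIs before they were called cycling, 31 members were called higher. This setting left out DETCs with fewer than 2000 UMIs and used a gate lower than 3 cell cycle UMIs. Of its cycling cells, 88.2% and 69.9% met the main gate. These cycling cells were still deeper, at a median of 5148 and 4857 UMIs against 4059 and 3619 in the other DETCs. The part of depth in these results was not tested. The counts of 60, 13, 12, 0 and 31 have no share over all genes beside them, so they are not read against the 39.

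**Figure D4:**
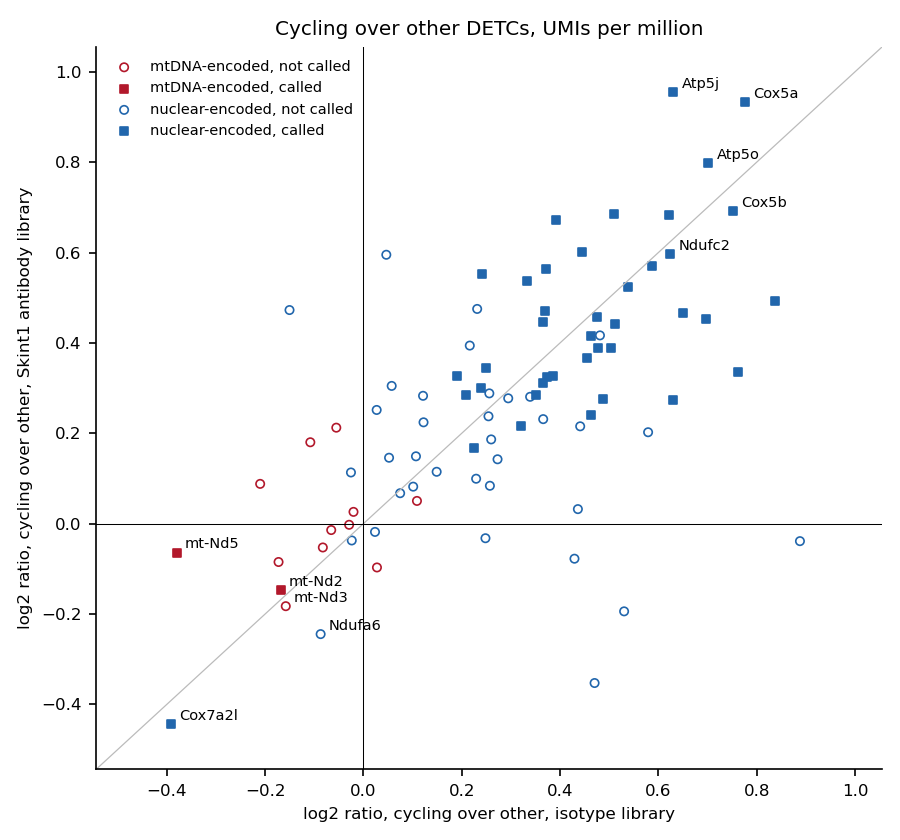
Log2 ratio of CPM, cycling over other DETCs, in the isotype library (horizontal) and the Skint1 antibody library (vertical), 1 point per member, with filled squares for members called by edgeR. Nuclear members (blue) lie mostly at the upper right, led by Cox5a and Atp5j, mtDNA-encoded members (red) lie around 0, and Cox7a2l is at the lower left in both libraries.

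DETCs also differed with the immediate early genes Fos, Fosb, Jun, Junb, Egr1 and Nr4a1, which rise within minutes of stimulation. DETCs with fewer than 2000 UMIs were left out, which left 3429 and 4770 cells, and each was thinned to 2000 UMIs. Within each library, the third of these cells with most UMIs of these genes was set against the third with fewest (1143 and 1590 cells in either class). Heat shock genes moved with the classes, at 7971 and 5615 CPM in the high class against 3334 and 2509 CPM in the low class. Depth was close, at a median of 4032 and 3502 UMIs per cell against 4052 and 3751.

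Nuclear members were lower in immediate early high DETCs. They took 1.77% and 1.76% of UMIs there, against 2.18% and 2.25% in the low class, log2 ratios of -0.30 (-0.32 to -0.29) and -0.35 (-0.36 to -0.34). With TMM factors edgeR called 35 nuclear members lower and 0 higher, and 12 mtDNA-encoded members higher and 0 lower, where 13% of 9067 genes were called lower and 19.7% higher. On total UMIs the median of all genes moved from -0.006 to -0.20, and 70 members, 69 of them nuclear, were called lower and 1 higher, where 37.8% of all genes were called lower and 13.4% higher. The median mtDNA-encoded member was at 0.17 with TMM factors and at -0.02 on total UMIs. All 35 lower calls were made under both scalings, and of the 12 higher calls only mt-Nd2 was. DESeq2 called 7 lower and 5 higher, all among the edgeR calls (1.1% and 9.33% of all genes).

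Ndufb7 fell furthest. It was at 126 and 111 CPM in the high class against 194 and 181 CPM in the low class, a log2 ratio of -0.47 (adjusted p = 1.1e-05). Uqcrb, a small subunit near the ubiquinone site of complex III, was at 141 and 129.6 against 213 and 213 CPM (-0.46, adjusted p = 1.1e-05), and Ndufb9 at 184 and 191 against 287 and 279 CPM (-0.40, adjusted p = 2.6e-05). Atp5o was at 148 and 144 against 214 and 217 CPM (-0.37, adjusted p = 0.00012), and Uqcr10 at 259 and 236 against 355 and 366 CPM (-0.35, adjusted p = 0.00012). The high and low values of these 5 genes did not overlap. By complex, 16 of 35 nuclear members of complex I, 2 of 4 of complex II, 5 of 9 of complex III, 3 of 11 of complex IV and 9 of 15 of complex V were called lower with TMM factors. On total UMIs these counts were 34, 2, 8, 10 and 15.

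The direction of the mtDNA-encoded members depended on the scaling. mt-Nd2 was at 2300 and 2395 CPM in the high class against 2156 and 2160 CPM in the low class (log2 ratio 0.32, adjusted p = 4.2e-07, and 0.12 on total UMIs). mt-Nd3 (0.32), mt-Nd1 (0.27), mt-Nd4 (0.22) and mt-Co1 (0.20) were the other high ones with TMM factors, but on total UMIs their ratios were between 0.01 and 0.12 and were not called. The summed mtDNA-encoded members had log2 ratios of CPM of -0.04 (-0.04 to -0.03) after isotype and 0.007 (0.0004 to 0.01) after Skint1 antibody. Without the 10% of DETCs highest in heat shock genes, 29 members were called lower and 12 higher. Without cycling cells, a setting added after the data were seen, 34 were called lower and 11 higher.

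The share of member UMIs that came from nuclear genes needs no scaling between classes. It was 31.5% (31.0 to 32.0) and 30.6% (30.1 to 31.0) in cycling DETCs against 26.1% (26.0 to 26.2) and 25.9% (25.9 to 26.0) in other DETCs. It was 24.5% (24.4 to 24.7) and 23.9% (23.8 to 24) in immediate early high DETCs against 28.1% (27.9 to 28.2) and 28.7% (28.5 to 28.8) in immediate early low DETCs. In αβ T cells it was 28.5% (28.1 to 28.9) and 26.8% (26.5 to 27.1), against 26.3% and 26.1% in DETCs. Both libraries gave the same order within each pair of classes, and these classes share cells, so the pairs are not independent of each other.

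**Figure D5:**
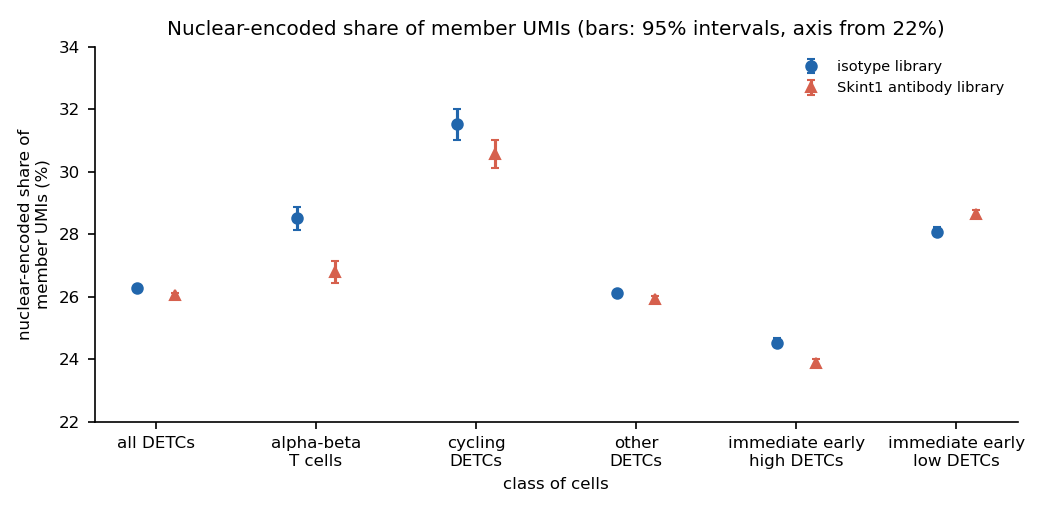
Nuclear-encoded share of all member UMIs in percent, for 6 classes of cells, with circles for the isotype library, triangles for the Skint1 antibody library, 95% intervals as bars and an axis that starts at 22%. Cycling DETCs are highest, at 31.5% and 30.6%, and immediate early high DETCs lowest, at 24.5% and 23.9%.

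Single DETCs varied in both sums. After thinning to 2000 UMIs, mtDNA-encoded members took a median of 5.45% and 5.58% of UMIs per cell (lower to upper decile 3.95 to 7.5 and 4.15 to 7.4), with an SD of 1.49 and 1.34 percentage points where counting alone gives 0.51 and 0.52. Nuclear members took a median of 1.9% and 1.95%, with an SD of 0.50 and 0.49 where counting gives 0.31 and 0.31. The level of nuclear members differed between bins of mitochondrial share. As a share of nuclear-encoded UMIs, these were 2.12% (2.11 to 2.13) and 2.16% (2.15 to 2.17) in cells with 3 to 5% mitochondrial UMIs, and 1.85% (1.81 to 1.88) and 1.94% (1.91 to 1.97) in cells with 8 to 12%. Above the limit, at 12 to 20%, they were 1.45% and 1.5% over 70 and 57 cells, and above 20% they were 1.505% (1.33 to 1.7) and 1.74% (1.52 to 1.97) over 10 and 7 cells, higher than in the bin before. In single cells thinned to 2000 UMIs, the mtDNA-encoded sum was set against nuclear members as a share of nuclear-encoded UMIs. Spearman's rho was -0.08 and -0.04 over 3429 and 4770 DETCs, which share libraries, too weak to read. Median depth was lower along the same bins, from 4215 and 3676 UMIs at 3 to 5% to 1859 and 1791 at 12 to 20%, and its part was not tested.

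Genes around the pathway were read from lists of assembly factors, mitochondrial ribosomal proteins, mtDNA transcription and translation, the tricarboxylic acid cycle, regulators, and carriers and partners. Between treatments, 1 of 35 measured assembly factors was past 1.2-fold upward and 1 downward, 1 of 71 mitochondrial ribosomal proteins and 1 of 7 regulators downward, and none in the other lists, where 2.21% of all genes were past it upward and 4.76% downward. Against αβ T cells, 4 of 14 tricarboxylic acid cycle genes were called higher in DETCs and 0 lower, under either scaling, where 16.9% of all genes were called higher with TMM factors and 22.9% on total UMIs. The median of the list was 0.17 and 0.31 on these scales, against 0.014 and 0.15 over all genes. Idh2, the NADP-dependent isocitrate dehydrogenase, was at 58.2 and 64.7 CPM against 18.7 and 28.7 CPM (log2 ratio 1.23, adjusted p = 3.1e-06). Dlst was at 160.2 and 148 against 63.7 and 93.2 CPM (0.83, adjusted p = 1.6e-06), and Suclg1 at 135 and 159 against 78.7 and 71.7 CPM (0.83, adjusted p = 1.2e-06).

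The carriers split between classes. Slc25a3, the phosphate carrier that feeds ATP synthase, was at 735 and 681 CPM in DETCs against 441 and 516 in αβ T cells (0.43, adjusted p = 1.7e-05). It was at 954 and 928 CPM in immediate early high DETCs against 477 and 444 in low ones (1.23, adjusted p = 2.5e-15). Of the 7 carriers and partners, 1 was called higher and 3 lower in DETCs than in αβ T cells (1 and 1 on total UMIs), where 16.9% and 16.7% of all genes were (22.9% and 13% on total UMIs). With immediate early genes 2 were called higher and 3 lower (1 and 5 on total UMIs), where 19.7% and 13% of all genes were (13.4% and 37.8% on total UMIs). The lower ones with TMM factors were Slc25a5 (-0.27, adjusted p = 0.0013), Ucp2 (-0.23, adjusted p = 0.0019) and Atpif1 (-0.22, adjusted p = 0.0074). In cycling DETCs 4 were called higher and 2 lower, where 10.7% of all genes were called higher and 6.06% lower. The ATP synthase inhibitor gene Atpif1 was at 567 and 658 CPM there against 312 and 333 CPM in other DETCs (0.92, adjusted p = 3.4e-25), the ADP/ATP carrier gene Slc25a5 at 507 and 555 against 339 and 306 CPM (0.72, adjusted p = 1.2e-14), and Cycs, cytochrome c, at 187 and 173 against 137 and 129 CPM (0.44, adjusted p = 0.0081). Slc25a3 (-0.29, adjusted p = 0.003) and Ucp2 (-0.26, adjusted p = 0.013) were the lower ones. Slc25a4 was lower in DETCs than in αβ T cells, at 168 and 152 against 212 and 228 CPM (-0.60, adjusted p = 3.1e-06).

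Mitochondrial ribosomal protein genes, which serve translation of the mtDNA-encoded members, were called higher in cycling DETCs for 16 of 75 and lower for 1, where 10.7% of all genes were called higher and 6.06% lower, with a median log2 ratio of 0.34 against -0.017 over all genes. Mrpl18 was at 116 and 103 CPM against 54.4 and 56.7 CPM (0.98, adjusted p = 3.9e-07). In immediate early high DETCs, 26 of 74 were called lower and 1 higher with TMM factors, with a median of -0.20. On total UMIs these were 54 lower and 1 higher, with a median of -0.39, where 37.8% of all genes were called lower against 13% with TMM factors. Mrpl34 was at 14.7 and 13.6 against 35.3 and 31.4 CPM (-1.04, adjusted p = 1.7e-06), and Mrps6 was the higher one, at 69.4 and 58.5 against 53.5 and 44.9 CPM (0.57, adjusted p = 1.8e-05). Against αβ T cells, the split turned with the scaling. With TMM factors 2 of 74 were called higher and 9 lower, with a median of -0.14, and on total UMIs 6 higher and 3 lower, with a median of 0.002. The shares over all genes were 16.9% higher and 16.7% lower with TMM factors, and 22.9% and 13% on total UMIs.

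The scaling also turned the split of assembly factors against αβ T cells, with 1 of 43 called higher and 5 lower with TMM factors and 5 higher and 3 lower on total UMIs. In cycling DETCs 2 of 42 were called higher and 0 lower under either scaling. In immediate early high DETCs 2 of 42 were called higher and 8 lower with TMM factors, and 2 and 20 on total UMIs. The shares over all genes are those given for the mitochondrial ribosomal proteins, with 19.7% higher with TMM factors and 13.4% on total UMIs for immediate early genes. Sdhaf1, an assembly factor of complex II, was at 34.5 and 29.9 CPM in DETCs against 61.2 and 44.2 in αβ T cells (-0.84, adjusted p = 0.00037). In the list of mtDNA transcription and translation, 1 of 13 was higher and 1 lower against αβ T cells (1 and 0 on total UMIs). In cycling DETCs 0 of 14 were called (edgeR with TMM factors), and 1 was higher and 3 lower of 13 with immediate early genes (1 and 5 on total UMIs). In the tricarboxylic acid cycle list, 0 of 14 were called in cycling DETCs and 3 were lower in immediate early high DETCs (7 on total UMIs). Of 8 regulators, 2 were lower in DETCs than in αβ T cells (1 on total UMIs), 0 were called in cycling DETCs, and 2 were higher and 0 lower in immediate early high DETCs (2 and 3 on total UMIs). The higher ones were Myc, at 20.6 and 19.0 CPM against 9.29 and 3.14 CPM (1.95, adjusted p = 6e-07), and Gabpb1, at 18.9 and 18 against 7.64 and 9.74 CPM (1.26, adjusted p = 9.1e-06).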

How the data were processed

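Per the labels and the study's methods, the authors prepared 1 droplet library per treatment with a 10x Genomics 3' kit and counted UMIs with CellRanger against mm10 (build GRCm38), in version 3.0.2 per the file headers. The authors deposited whole-number UMI counts that had not been normalized, for all 6794880 barcodes of each library, with totals of 27272211 and 32450957 UMIs.

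Here cells were gated, UMIs were summed per class and library, and levels were given as CPM (UMIs per 1000000 of the class). Classes within libraries were compared by edgeR 4.0.16 (quasi-likelihood, library as block, TMM, mean of at least 5 CPM over 4 sums, Benjamini-Hochberg adjustment over all genes, call at 0.05, 1 residual degree of freedom per gene), with DESeq2 1.42.0 as an alternative. With library as a block, the p-values measure how far the difference between classes disagreed between 2 libraries of different treatment, from 1 mouse each. This spread was shared across genes in the fit. The p-values do not measure variation between mice given the same treatment. Scrublet in scanpy 1.11.5 marked 1 and 0 barcodes by its own threshold, so doublets were left in, and the 177 and 330 highest scores were left out as an alternative. The edgeR fit was tried on simulated sums drawn from a pooled profile, with known folds in both directions and no difference between libraries. That trial does not bear on how the calls depend on library or scaling.

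The named genes are the 13 mtDNA-encoded members, in each complex the 2 highest and 1 lowest nuclear members, in each comparison the 5 highest and 5 lowest ratios among members with at least 100 UMIs in each class, isoform partners, symbols under the limit, and for other lists genes among the 3 highest and 3 lowest. Members and lists were chosen with earlier results of these data known. Cox4i1, Cox8a, Sdha, Sdhb and Sdhc also appear in comparisons where the rule for named genes does not pick them, a choice made after their values were seen. Positions are those of GENCODE vM21, and promoters those of RefSeq on GRCm38.p6. Alternatives changed gates, limits, scaling, filters and the test.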

Additional observations from a re-analysis of the deposited data

Results flagged for a closer look

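mt-Nd2, a complex I subunit, stood on opposite sides of 0 in the 2 libraries when DETCs were set against αβ T cells. The log2 ratio of CPM was 0.108 (0.04 to 0.18) after isotype and -0.126 (-0.19 to -0.06) after Skint1 antibody. The difference itself was not tested, since each treatment has 1 library.

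Of the symbols under 10 CPM, 4 that were at or near 0 in DETCs were read in barcodes with 1 to 100 UMIs, which no comparison used. Cox6b2 was at 9.32 CPM (33 UMIs) and 14.0 CPM (46 UMIs) there, and Ndufa4l2 at 8.19 CPM (29 UMIs) and 5.49 CPM (18 UMIs). Cox8b was at 3.95 CPM (14 UMIs) and 4.58 CPM (15 UMIs), and Cox4i2 at 2.82 CPM (10 UMIs) and 2.75 CPM (9 UMIs). Keratinocyte markers summed to 1053 and 1603 CPM in the same barcodes, against 19.0 and 30.7 CPM in DETCs.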

How the results depend on the processing

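The number of members stayed between 88 and 89 under 12 alternatives, and 0 members passed 1.2-fold between treatments under any. The summed log2 ratio between treatments stayed positive throughout. For mtDNA-encoded members it was 0.0328 with at most 5% mitochondrial UMIs, 0.031 with 20%, 0.0277 with no limit, 0.0493 with no upper limit on genes, 0.0304 in DETCs with a Trdv4 UMI, 0.065 centred on the median gene and 0.0271 as a mean over cells. For nuclear members it was 0.0129 with no upper limit on genes and 0.049 centred on the median gene.

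Members called higher in DETCs than in αβ T cells numbered 1 with a filter of 50 CPM, 10 without TMM and 2 without a filter, and those called lower 9 by DESeq2, 10 with at most 5% mitochondrial UMIs, 10 without TMM and 13 without a filter. In cycling DETCs, higher calls numbered 17 by DESeq2, 12 with at most 5% and 60 with no upper limit on genes. Lower calls there numbered 0 by DESeq2 and with at most 5%, 1 in DETCs with a Trdv4 UMI, without the library block and without the highest doublet scores, and 13 with no upper limit. In immediate early high DETCs, higher calls numbered 5 by DESeq2, 1 without TMM and 4 without the library block, and lower calls 7 by DESeq2 and 70 without TMM. The cause of these moves was not tested, except that fewer cells enter with a 5% limit and more with no upper limit. Shares over all genes are given only for the main fit, total UMIs and DESeq2, and the other counts have none beside them. Against αβ T cells, the 5 members with the lowest ratios (Cox5a, Ndufb7, Sdhb, Uqcrh and Cox7c) kept their call in all 85 refits. Of all 28 members called lower there, 10 were also called without TMM, none of them mtDNA-encoded, and 9 by DESeq2, and the rest lost the call. The called members among the 5 highest and 5 lowest ratios lost their call in 18 of 120 refits with cycling and in 5 of 160 with immediate early genes, and none of these changed direction. The lost calls were those of mt-Nd2, mt-Nd5, Cox7a2l and Ndufc2 with cycling, and of mt-Co1, mt-Nd1, mt-Nd3 and mt-Nd4 with immediate early genes.

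No paired analysis was possible between treatments because each has 1 library. Leaving out the isotype or the Skint1 antibody library left no residual degree of freedom, so those fits were not run, and each library's own ratio stands in the report. Depth limits αβ and cycling sums most, at 439478 to 836438 UMIs.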
